A study of Mus musculus with 8 samples.

Results

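The genes described here encode the subunits of the mitochondrial respiratory chain and ATP synthase, together with a few assembly factors that carry similar names. They were chosen from the count table by symbol alone, as protein-coding genes named mt-Nd, mt-Co, mt-Atp or mt-Cytb, Nduf with the letter a, b, c, s or v, Sdha to Sdhd, Uqcr, Cyc1, Cox4 to Cox8, or Atp5, and no measured value entered the choice. This gave 104 of the 30890 genes of the table, of which 13 lie on the mitochondrial genome and 91 in the nucleus. Kidneys of C57BL/6 mouse embryos of stage E12.5 were kept *in vitro* on a floating filter for 72 h with 5 µM CHIR99021, an inhibitor of the kinase GSK-3β that stabilizes β-catenin, or with 0.1% DMSO, the solvent. Each group held 4 sequenced kidney samples. Per the study's methods the left kidney of an embryo received DMSO and the right kidney CHIR99021, and kidneys in which typical Wnt/β-catenin targets did not change were left out. No transgene or deletion was carried by either group.

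The respiratory chain passes electrons from NADH and succinate to oxygen through complexes I to IV and pumps protons across the inner mitochondrial membrane, and ATP synthase (complex V) uses that gradient to make ATP. Complexes I, III, IV and V are built from subunits of both genomes, whereas complex II is wholly nuclear. The mitochondrial messenger RNAs are cut from long transcripts of the circular genome, and all but *mt-Nd6* come from the same strand. Nuclear subunits are transcribed one by one and imported as proteins, and nephron epithelia, above all the proximal tubule, are rich in mitochondria.

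Counts per sample summed to between 14599082 and 17751992. Levels are given as CPM (counts divided by the library total and put on a common scale) after TMM scaling, which aligns the bulk of genes between samples, and differences as the log2 fold change of CHIR99021 over DMSO with its standard error (SE). The test was edgeR's quasi-likelihood test on the counts, and the words rose and fell are used where the adjusted p was under 0.05. Of the 104 members, 101 had enough counts to be tested, and *mt-Atp8*, *Cox6a2* and *Cox7a1* did not. In this comparison 48.7% of the 16723 tested genes were called, 23.7% higher and 25.0% lower, so a call is common in these kidneys. Groups whose CPM did not overlap were common too, with 22.7% of tested genes apart on the higher side and 23.4% on the lower. The DMSO libraries of replicates 2 and 4 held liver transcripts, with 1269 and 901 CPM summed over 7 liver markers against 1.18 to 57.2 CPM in the other 6 libraries. Nephron progenitor markers, such as *Six2*, summed to 799 to 995 CPM with DMSO and 267 to 321 CPM with CHIR99021, and all 6 fell. Proximal tubule markers went from 61.9 to 238 CPM down to 50.3 to 70.8 CPM (4 of 5 tested fell), macrophage markers from 119 to 430 down to 27.1 to 59.2 CPM (7 of 7 fell), and endothelial markers from 390 to 547 down to 150 to 208 CPM (6 of 6 fell). Ureteric bud markers went from 545 to 598 down to 302 to 333 CPM (5 of 8 fell). Stromal markers summed to 2050 to 2365 CPM and then to 2809 to 3467 CPM, but of the 6 only *Col3a1*, a collagen that holds most of that sum, rose, and 3 fell. The part of these changes in the results that follow was not tested, and in whole kidneys fewer cells of a type and less RNA per cell cannot be told apart.

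The mitochondrially encoded messenger RNAs were higher in the CHIR99021-treated kidneys, whereas most nuclear subunit genes did not pass the test. All 12 tested mitochondrial members rose, with log2 fold changes from 0.43 for *mt-Nd2* to 0.80 for *mt-Cytb* and a median of 0.60, beside a median of -0.00 over all tested genes. Of the 89 tested nuclear members, 6 rose (6.74%), 5 fell (5.62%) and 78 did not pass the test, and their median log2 fold change was 0.00. Both nuclear shares lie below the 23.7% and 25.0% of all tested genes. CPM of the groups did not overlap in 9 of the 12 mitochondrial members, all higher. Of the 89 nuclear members, 4 were apart on the higher side and 7 on the lower, beside 22.7 and 23.4% of all tested genes. None of the 101 passed an absolute log2 fold change of 1 together with the test, which 13.8% of all tested genes did.

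**Figure D1:**
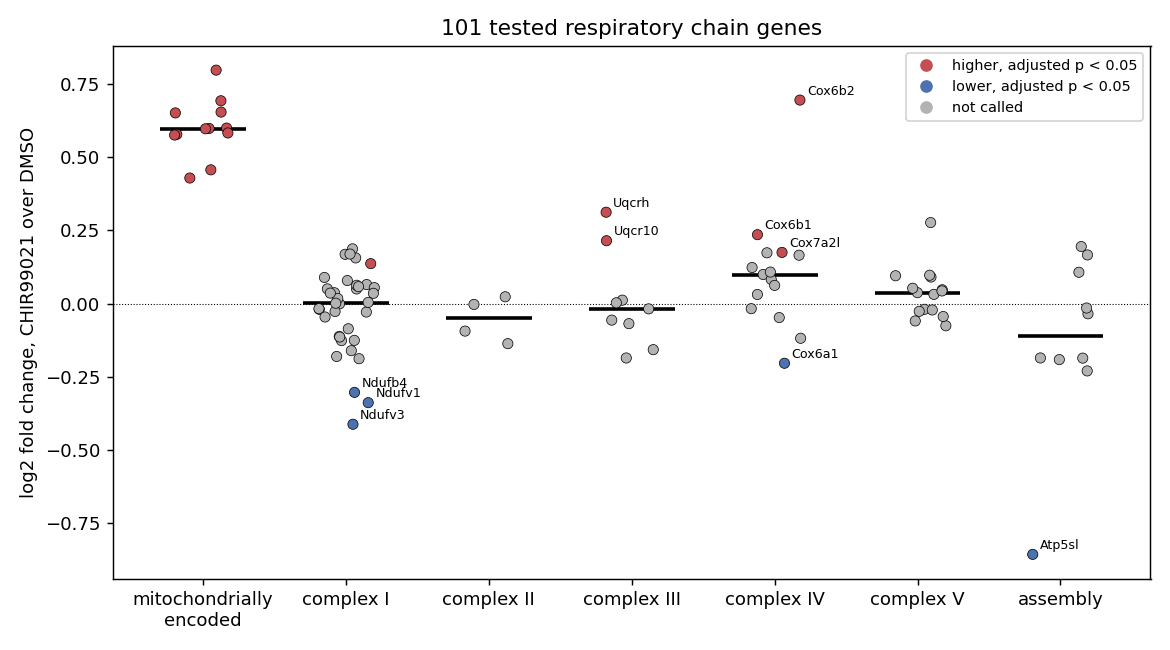
Log2 fold change (CHIR99021 over DMSO) of the 101 tested respiratory chain genes, one point per gene, in columns for the mitochondrially encoded members, the nuclear members of each complex and the assembly factors, with bars at the medians and names at called nuclear genes past 0.15 in either direction. The 12 mitochondrial points lie between 0.43 and 0.80, and of the nuclear genes only *Cox6b2* (0.70) lies in that range.

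Summed over the 13 mitochondrial members, the counts made up 3.12, 3.11, 2.57 and 2.42% of the library in DMSO replicates 1 to 4 and 4.03, 4.06, 3.96 and 3.42% in CHIR99021 replicates 1 to 4. The 2 groups did not overlap, and the treated kidney was higher in all 4 pairs. The 91 nuclear members together made up 0.583, 0.595, 0.633 and 0.590% with DMSO and 0.559, 0.534, 0.523 and 0.555% with CHIR99021, and here the treated libraries lay below every DMSO library. This fall in the share of the library was of the size seen for genes in general: when only total counts are used for scaling, the median log2 fold change was -0.13 for the nuclear members and -0.14 over all tested genes. The TMM factors ran from 1.04 to 1.06 for DMSO libraries and from 0.948 to 0.963 for treated ones.

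The ratio of mitochondrial to nuclear counts within a library cannot be altered by any scaling of libraries. It was 5.36, 5.23, 4.06 and 4.10 in DMSO replicates 1 to 4 (mean 4.68 ± 0.704 SD) and 7.22, 7.60, 7.58 and 6.16 in the CHIR99021 replicates (mean 7.14 ± 0.675 SD). The lowest treated library lay above the highest DMSO library. On the log2 scale the difference of the group means was 0.61, and within pairs 1 to 4 it was 0.43, 0.54, 0.90 and 0.59. Without *mt-Co1*, which alone held 51.0% of the mitochondrial messenger counts in each group, the difference was also 0.61. Without DMSO replicates 2 and 4 it was 0.61 as well, and leaving out any single library gave 0.55 to 0.68.

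**Figure D2:**
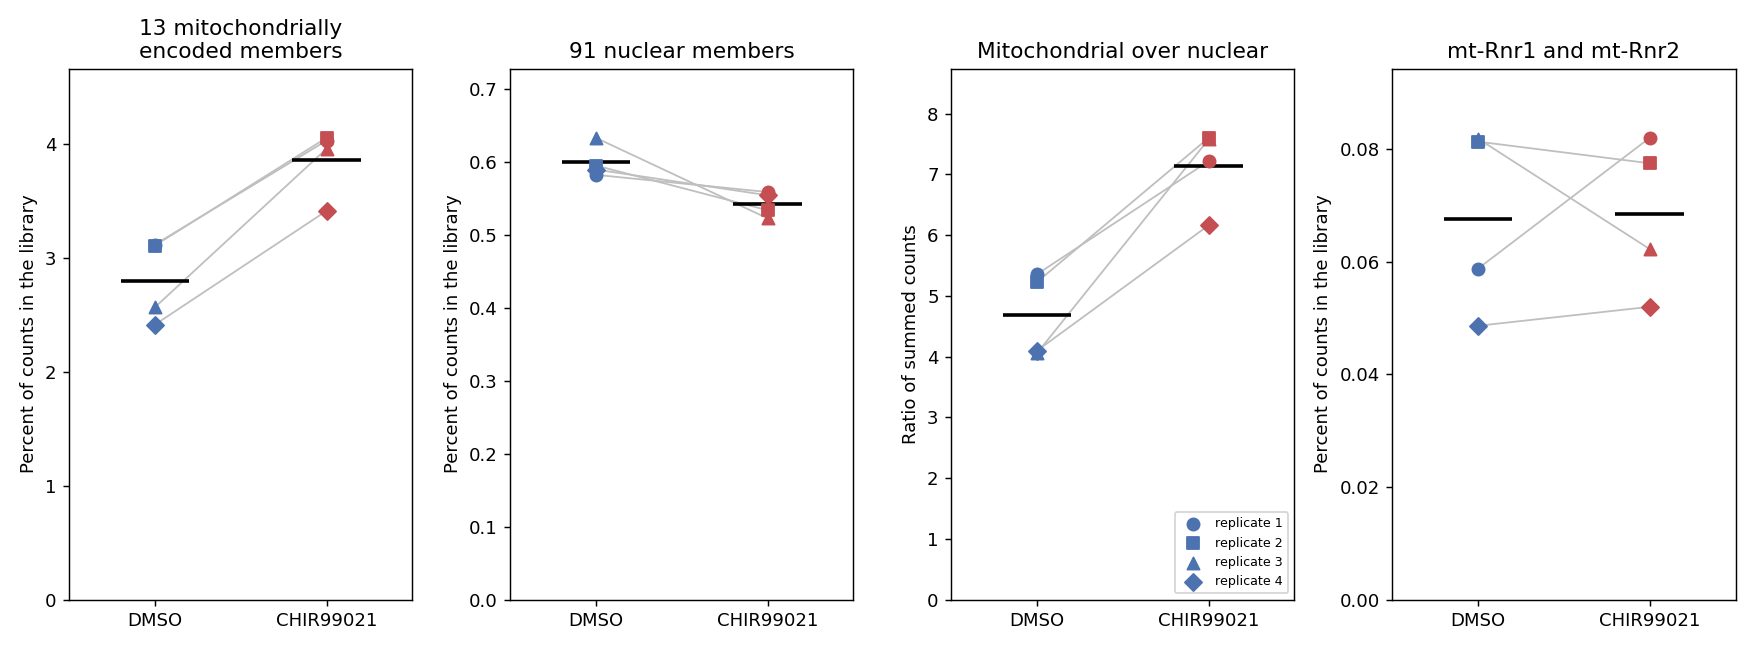
Percent of library counts held by the 13 mitochondrially encoded members and by the 91 nuclear members, the ratio of the 2 sums, and the percent held by *mt-Rnr1* and *mt-Rnr2*, for each of the 8 libraries. Symbols mark the replicate number, lines join equal numbers and bars are group means. The mitochondrial sum and the ratio (4.06 to 5.36 with DMSO, 6.16 to 7.60 with CHIR99021) do not overlap between groups, whereas the ribosomal RNAs do.

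Neither mitochondrial ribosomal RNA passed the test. *mt-Rnr1* (MT:70-1024), the small ribosomal RNA, had 228 ± 42.2 CPM with DMSO and 240.3 ± 41.1 CPM with CHIR99021 (log2 fold change 0.07, SE 0.16, adjusted p = 0.745). *mt-Rnr2* (MT:1094-2675), the large one, had 418 ± 121 and 479 ± 108 CPM (log2 fold change 0.19, SE 0.26, adjusted p = 0.587). Together they took 0.0676 ± 0.0166% and 0.0684 ± 0.0138% of the counts, which overlapped. The ratio of mitochondrial messenger to ribosomal RNA counts was 31.4 to 53.1 with DMSO and 49.2 to 65.7 with CHIR99021, with overlap, and was higher in 3 of 4 pairs. *mt-Tp*, a transfer RNA of the opposite strand and the only other mitochondrial RNA examined, gave a log2 fold change of -0.05 (adjusted p = 0.741). Ribosomal and transfer RNAs are poorly captured by messenger RNA libraries, so these levels do not measure their abundance in the kidney, and whether their changes differ from those of the messengers was not tested.

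Sequence shared with the nucleus limited at least 7 of the 13 mitochondrial members. Mouse chromosome 1 carries an insertion of mitochondrial DNA that is annotated as a row of unprocessed pseudogenes between positions 24611535 and 24616197 of GRCm38. Over the stretches that could be aligned, *mt-Co2* matched its copy *Gm28661* over 681 bases, *mt-Atp6* matched *Gm10925* over 678, *mt-Co3* matched *Gm28437* over 783, *mt-Nd4l* matched *Gm10222* over 294 and *mt-Nd4* matched *Gm28439* over 876, each with 0 differences. *mt-Co1* and *Gm29216* differed at 6 of 492 aligned bases, all between positions 1056 and 1066 of *mt-Co1*, and the rest of the stretch held no difference. *mt-Nd3* and *Gm28438* differed at 1 of 345, T3C, counted from the first base of *mt-Nd3*. The first 60 bases of that pair are shown because they hold the only difference between the 2 genes in the aligned stretch, with the differing base in capitals (*mt-Nd3* at MT:9459-9518, plus strand, and *Gm28438* at chr1:24613060-24613119, minus strand, GRCm38, from the GENCODE M21 transcripts).
mt-Nd3: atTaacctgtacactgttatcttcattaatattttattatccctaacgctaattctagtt
Gm28438: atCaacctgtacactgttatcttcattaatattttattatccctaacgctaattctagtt

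A read from such a stretch fits both places equally well. Of all 50-base stretches of a member, all in *mt-Co2*, 99.9% in *mt-Co3*, 99.5% in *mt-Atp6*, 98.8% in *mt-Nd4l* and 98.0% in *mt-Nd3* also occurred in another annotated gene, 62.2% in *mt-Nd4*, 51.1% in *mt-Co1*, 8.2% in *mt-Nd2* and 7.6% in *mt-Nd5*. In *mt-Nd1*, *mt-Nd6*, *mt-Cytb* and *mt-Atp8* the share was 0.0%, and every share is a lower bound because only annotated transcripts were searched. *mt-Atp8* starts between *mt-Co2* and *mt-Atp6*, whose copies *Gm28661* and *Gm10925* are neighbours on chromosome 1. A copy of *mt-Atp8* between them would not be seen by this search, so its 0.0% does not show that it is free of shared sequence. The sources used here do not say how reads with several matches were counted. The pseudogenes held more counts than the matching short members. *Gm10925* had 5388 to 11649 counts per library while *mt-Atp6* had 309 to 566, and *Gm28661* had 4649 to 9665 while *mt-Co2* had 888 to 1623. The levels of these 7 members are therefore uncertain, and they are given as the counts assigned to each gene.

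**Figure D3:**
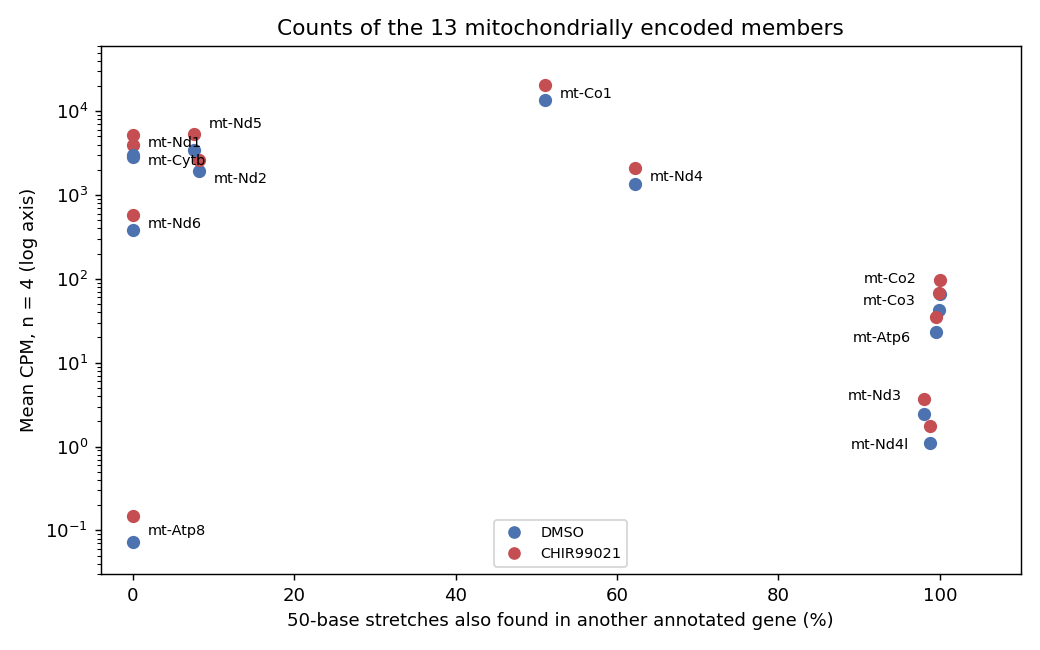
Mean CPM of each of the 13 mitochondrially encoded members (log axis, DMSO and CHIR99021, n = 4 each) against the percent of its 50-base stretches that also occur in another annotated gene. The 5 members at 98.0% or more have means under 100 CPM, whereas mt-Nd1, mt-Nd2, mt-Nd5, mt-Nd6 and mt-Cytb, at 8.2% or less, have means from 386 to 5284 CPM. The exception is mt-Atp8, at 0.0%, with the lowest means of all, 0.0721 CPM with DMSO and 0.147 CPM with CHIR99021.

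The rise was also present in the 5 tested members with under 10% shared stretches. *mt-Cytb* (MT:14145-15288), the only mitochondrial subunit of complex III and the one that binds its quinones, had 3429, 3352, 2488 and 2586 CPM with DMSO and 5584, 5540.0, 5035 and 4446 CPM with CHIR99021. The groups did not overlap (log2 fold change 0.80, SE 0.12, adjusted p = 0.000415). *mt-Nd1* (MT:2751-3707), a membrane-arm subunit of complex I at the quinone site, had 3036, 3232, 2848 and 2388 CPM with DMSO and 4045, 4265, 4062 and 3421 CPM with CHIR99021. These ranges were apart too (log2 fold change 0.46, SE 0.09, adjusted p = 0.00207). *mt-Nd5* (MT:11742-13565), a proton-pumping subunit at the far end of the arm, rose from 3487 ± 555 to 5284 ± 672 CPM (SD, n = 4 per group), with a log2 fold change of 0.60 (SE 0.13, adjusted p = 0.00361).

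*mt-Nd2* (MT:3914-4951), another pumping subunit, had 2134, 2246, 1896 and 1563 CPM with DMSO and 2741, 2966, 2735 and 2115 CPM with CHIR99021. CHIR99021 replicate 4 lay below DMSO replicates 1 and 2, although each treated kidney was above its pair (log2 fold change 0.43, SE 0.13, adjusted p = 0.0241). This call was lost in 10 of 23 alternative fits, among them those without DMSO replicate 3 or CHIR99021 replicate 1, 2 or 3. With the pairs as a block, edgeR's test gave *mt-Nd2* an adjusted p of 2.11e-05. *mt-Nd6* (MT:13552-14070), the membrane-arm subunit read from the other strand, went from 386 ± 69.4 to 584 ± 92.6 CPM, a log2 fold change of 0.60 with an SE of 0.16 (adjusted p = 0.0147). Its groups overlapped by a small margin, 454 CPM in DMSO replicate 2 against 453 CPM in CHIR99021 replicate 4. With the pairs as a block, edgeR's test gave *mt-Nd6* an adjusted p of 1.15e-05. Its 3′ end shares bases with *mt-Nd5*, and whether counting used strand is not given, so reads of the opposite strand may be among its counts.

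Of the members with shared sequence, *mt-Co1* (MT:5328-6872), the catalytic subunit of cytochrome c oxidase, was the most abundant gene of the table in all 8 libraries. It had 15231, 15075, 12461 and 11941 CPM with DMSO and 21194, 21346, 21394 and 18821 CPM with CHIR99021, with no overlap (log2 fold change 0.60, SE 0.08, adjusted p = 9.29e-05). The counts assigned to *mt-Co2* (MT:7013-7696), which carries the copper centre that takes electrons from cytochrome c, went from 65.3 ± 12.2 to 98.0 ± 6.22 CPM (log2 fold change 0.58, adjusted p = 0.00285). For *mt-Co3* (MT:8607-9390), the third core subunit, the log2 fold change was 0.65 (SE 0.19, adjusted p = 0.0214) and the groups overlapped by a small margin, with 56.0 CPM in DMSO replicate 1 and 55.8 CPM in CHIR99021 replicate 4. The call of *mt-Co3* was lost in 5 of 23 alternative fits, among them those without DMSO replicate 4, CHIR99021 replicate 1 or CHIR99021 replicate 2. With the pairs as a block, edgeR's test gave *mt-Co3* an adjusted p of 0.000123. *mt-Nd4* (MT:10167-11544), a pumping subunit of complex I, was at 1349 ± 194 CPM with DMSO and at 2119.6 ± 222 CPM with CHIR99021 (log2 fold change 0.65, SE 0.11, adjusted p = 0.000588).

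The remaining mitochondrial members had few counts. *mt-Atp6* (MT:7927-8607), the proton channel subunit of ATP synthase, went from 23.5 ± 5.45 to 35.1 ± 3.20 CPM (log2 fold change 0.58, adjusted p = 0.00845), and its groups were apart. *mt-Nd3* (MT:9459-9806) had 2.43 ± 0.548 and 3.65 ± 0.471 CPM (log2 fold change 0.58, adjusted p = 0.0322), and *mt-Nd4l* (MT:9877-10173) 1.10 ± 0.149 and 1.78 ± 0.237 CPM (log2 fold change 0.69, adjusted p = 0.0232). Both are small membrane-arm subunits of complex I, and their calls were lost in 7 and 10 of the 23 alternative fits. With the pairs as a block, edgeR's test gave adjusted p-values of 0.0289 for *mt-Nd3* and 0.0366 for *mt-Nd4l*. Leaving out DMSO replicate 3, DMSO replicate 4, CHIR99021 replicate 1 or CHIR99021 replicate 3 ended both calls, and leaving out DMSO replicate 1 ended that of *mt-Nd4l*. *mt-Atp8* (MT:7766-7969), the other mitochondrial subunit of ATP synthase, had 0 to 4 counts per library and was not tested. With the counts of each chromosome 1 pseudogene added to the matching member, all 12 tested members were still called higher, with a median log2 fold change of 0.59. The pseudogene counts rose as well, from a log2 fold change of 0.39 for *Gm29216* to 0.74 for *Gm28438*.

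**Figure D4:**
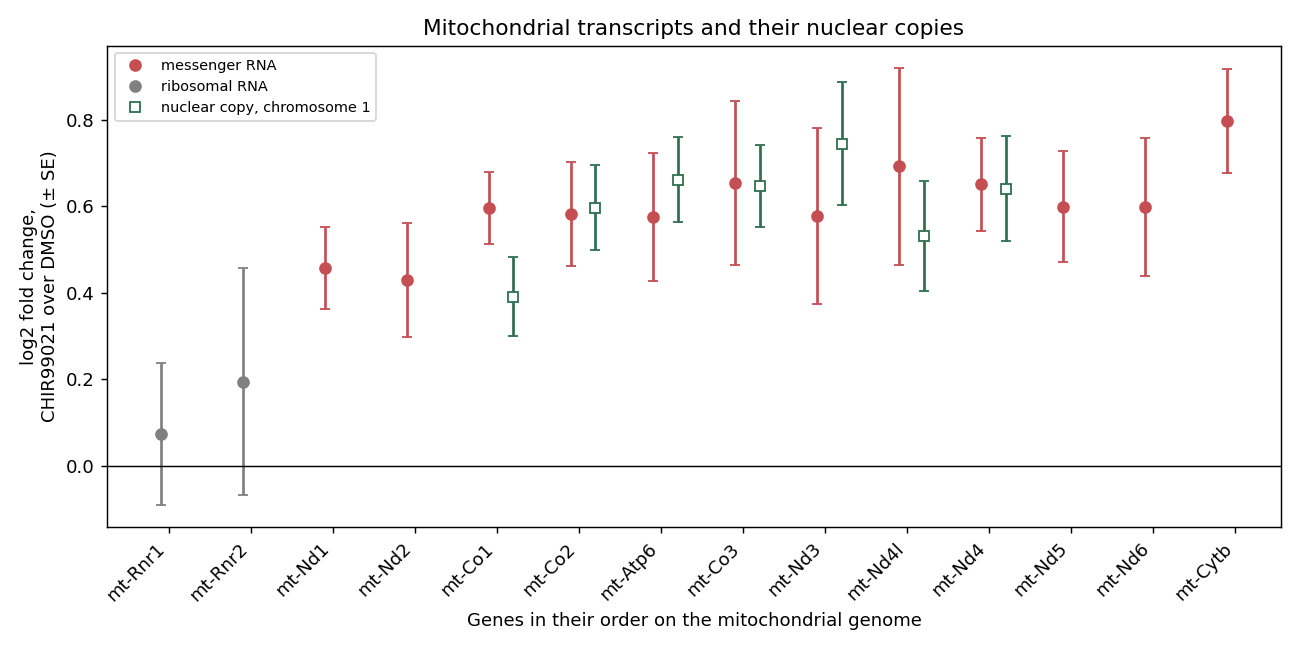
Log2 fold change with its standard error for the mitochondrial messenger RNAs and ribosomal RNAs in the order in which they lie on the mitochondrial genome, and for the 7 pseudogene copies on chromosome 1 beside the member they match. The messengers lie between 0.43 and 0.80 and the copies between 0.39 and 0.74, whereas the ribosomal RNAs lie at 0.07 and 0.19.

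The fitted rises of the mitochondrial messengers differed in size, but differences between them were not tested. *mt-Cytb* had the highest log2 fold change of the tested members, and only *mt-Nd2* had a lower one than *mt-Nd1*. As a share of mitochondrial messenger counts, *mt-Cytb* went from 11.0 ± 0.543% to 12.7 ± 0.456%, with no overlap, while *mt-Nd1* went from 10.7 ± 0.696% to 9.72 ± 0.182%, also with no overlap in the other direction. The ratio of *mt-Cytb* to *mt-Nd1* counts was 1.13, 1.04, 0.873 and 1.08 with DMSO and 1.38, 1.30, 1.24 and 1.30 with CHIR99021, and no 50-base stretch of either gene occurred in another annotated gene. The shares of all other mitochondrial members overlapped between groups, among them *mt-Co1* (51.0 and 51.0%), *mt-Nd5* (13.0 and 13.0%) and *mt-Nd6* (1.43 and 1.43%). Per length, in the deposited FPKM, the order of the mean level in both groups was *mt-Co1* first (9252 with DMSO, 12752 with CHIR99021). With DMSO, *mt-Nd1* (3142 ± 384) and *mt-Cytb* (2707 ± 437) followed, and their ranges overlapped. With CHIR99021, *mt-Cytb* stood at 4287 ± 417 and *mt-Nd1* at 3928 ± 339, and their ranges overlapped as well. Within libraries, *mt-Nd1* was above *mt-Cytb* in every DMSO library and below it in every CHIR99021 library.

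Complex I, the entry point for electrons of NADH, had 36 nuclear members, of which 1 rose, 3 fell and 32 did not pass the test, with a median log2 fold change of 0.00. The shares that rose and fell, 2.78 and 8.33%, were below the 23.7 and 25.0% of all tested genes. *Ndufv1* (chr19:4007497-4012806, minus strand), which binds NADH and the flavin, had 55.9, 56.8, 57.7 and 57.4 CPM with DMSO and 44.6, 43.9, 42.6 and 49.0 CPM with CHIR99021, with no overlap (log2 fold change -0.34, SE 0.06, adjusted p = 0.000329). *Ndufv3* (chr17:31520115-31531326, plus strand), a small accessory subunit beside it, had 43.3, 44.9, 48.2 and 43.3 CPM with DMSO and 35.7, 35.5, 32.4 and 31.6 CPM with CHIR99021 (log2 fold change -0.41, SE 0.07, adjusted p = 0.000193). Every treated library was below every DMSO library in both genes. *Ndufb4* (chr16:37647170-37654453, minus strand), an accessory subunit of the membrane arm, fell from 17.3 ± 1.20 to 14.0 ± 1.32 CPM (log2 fold change -0.30, adjusted p = 0.0193), and 18.3% of its 50-base stretches occur in other genes. Its call was lost in 3 of 23 alternative fits, among them those without DMSO replicate 3 or CHIR99021 replicate 3. *Ndufab1*, the mitochondrial acyl carrier protein, gave 0.19 with an adjusted p of 0.0547, or 0.0435 with the pairs as a block, and was chosen after its values were seen.

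**Figure D5:**
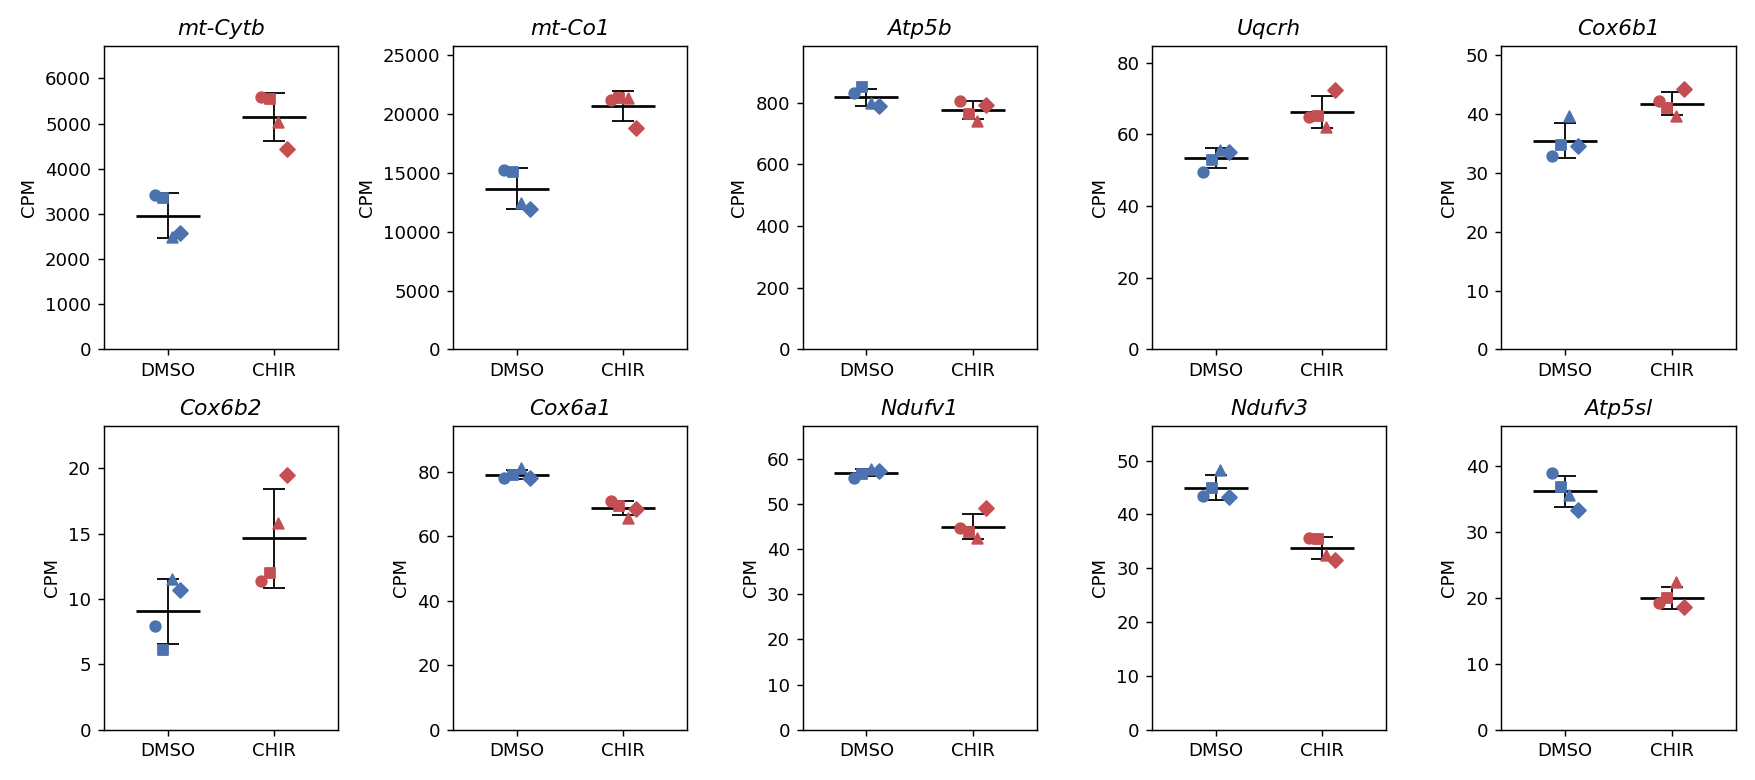
CPM in each of the 8 libraries for the mitochondrial *mt-Cytb* and *mt-Co1* and for 8 nuclear members, with axes from 0, symbols for the replicate numbers 1 to 4 (circle, square, triangle, diamond), and the group mean ± SD. *Uqcrh*, *Cox6a1*, *Ndufv1*, *Ndufv3* and *Atp5sl* do not overlap between groups, whereas *Cox6b1*, *Cox6b2* and *Atp5b* do. Of all tested genes, 22.7% lie apart on the higher side and 23.4% on the lower.

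Complex II, succinate dehydrogenase, is the only complex without a mitochondrially encoded subunit. None of its 4 members passed edgeR's test at an adjusted p under 0.05, and 0 had an unadjusted p under 0.05. DESeq2 and limma-voom also called 0, and limma on quantile-normalized log2(count + 1) called 1, *Sdha*. Their log2 fold changes ran from -0.14 to 0.02.

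In complex III, which passes electrons from ubiquinol to cytochrome c, 2 of 9 nuclear members rose and 0 fell. The share that rose, 22.2%, was near the 23.7% of all tested genes. *Uqcrh* (chr4:116066965-116075071, minus strand), the acidic hinge protein beside cytochrome c1, had 49.5, 52.8, 55.7 and 55.0 CPM with DMSO and 64.8, 65.1, 62.2 and 72.4 CPM with CHIR99021. The groups did not overlap (log2 fold change 0.31, SE 0.06, adjusted p = 0.00112). *Uqcr10* (chr11:4701973-4704342, minus strand), a small subunit, went from 22.2 ± 0.587 to 25.8 ± 2.32 CPM (log2 fold change 0.22, adjusted p = 0.0355), with overlap and with the call lost in 12 of 23 alternative fits, among them those without any 1 of the 4 DMSO replicates or without CHIR99021 replicate 1 or 2. *Cyc1*, the cytochrome c1 subunit, stood at 70.9 ± 5.80 and 63.6 ± 3.38 CPM (log2 fold change -0.16, adjusted p = 0.0676, and 0.0255 with the block), and was chosen after its values were seen.

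In complex IV, cytochrome c oxidase, 3 of 15 tested nuclear members rose and 1 fell. *Cox6a1* (chr5:115345642-115348981, minus strand), the form of subunit 6a found outside muscle, had 78.1, 79.0, 81.0 and 77.9 CPM with DMSO and 70.9, 69.3, 65.7 and 68.5 CPM with CHIR99021, all below the DMSO libraries (log2 fold change -0.20, SE 0.05, adjusted p = 0.00279). *Cox6b1* (chr7:30616861-30626151, minus strand), a subunit on the cytochrome c side, had 32.9, 34.8, 39.8 and 34.6 CPM with DMSO and 42.2, 41.0, 39.7 and 44.3 CPM with CHIR99021. Its groups overlapped through replicate 3 (log2 fold change 0.24, SE 0.07, adjusted p = 0.0135). *Cox6b2* (chr7:4751792-4753094, minus strand), the form of that subunit known from testis, had 7.95, 6.11, 11.5 and 10.7 CPM with DMSO and 11.4, 12.0, 15.8 and 19.5 CPM with CHIR99021. The groups overlapped, and all 4 pairs were higher with CHIR99021 (log2 fold change 0.70, SE 0.23, adjusted p = 0.0291, and 0.000421 with the block). The call of *Cox6b2* was lost in 10 of 23 alternative fits, among them those that left out DMSO replicate 1, DMSO replicate 2, CHIR99021 replicate 3 or CHIR99021 replicate 4. *Cox7a2l* (chr17:83501919-83514333, minus strand), described as a factor that can link complexes III and IV into supercomplexes, was at 165 ± 9.39 CPM and then at 187 ± 6.96 CPM (log2 fold change 0.18, SE 0.05, adjusted p = 0.0110), a rise lost in 7 alternative fits. Whether its product does so in C57BL/6 kidneys was not tested.

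Several subunits are encoded by more than one nuclear gene. As a share of the summed FPKM of *Cox6b1* and *Cox6b2*, *Cox6b2* made up 13.4, 10.1, 15.6 and 16.5% in DMSO replicates 1 to 4 and 14.7, 15.7, 20.3 and 22.0% in CHIR99021 replicates 1 to 4. The groups overlapped, and the share was higher with CHIR99021 in all 4 pairs. *Cox4i2*, the oxygen-responsive form of subunit 4, was 29.1 ± 2.85% and 28.4 ± 2.34% of the pair with *Cox4i1*. *Ndufa4l2*, a form linked to hypoxia, was 57.1 ± 2.04% and 57.8 ± 1.08% of the pair with *Ndufa4*, a subunit once placed in complex I. The muscle forms *Cox6a2* (0.410 ± 0.122 and 0.646 ± 0.564 CPM) and *Cox7a1* (0.356 ± 0.121 and 0.231 ± 0.157 CPM) were near 0 in both groups, and *Cox7a2*, the form outside muscle, had 32.8 ± 3.23 and 35.7 ± 2.42 CPM. *Cox7b* and *Cox8a*, whose other forms are not analysed here, had log2 fold changes of 0.17 (adjusted p = 0.0521) and -0.12 (adjusted p = 0.133). *Atp5g1*, *Atp5g2* and *Atp5g3*, which all encode the c subunit of the ATP synthase ring, took 8.25, 55.1 and 36.6% of their summed FPKM with DMSO and 7.92, 55.0 and 37.0% with CHIR99021.

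In complex V, 0 of 15 nuclear members passed edgeR's test at an adjusted p under 0.05, and 1 had an unadjusted p under 0.05. DESeq2 and limma-voom also called 0, and limma on quantile-normalized log2(count + 1) called 3, *Atp5a1*, *Atp5b* and *Atp5l*. Their median log2 fold change was 0.04, within a range from -0.08 for *Atp5b*, the catalytic beta subunit, to 0.28 for *Atp5l*, the g subunit of the membrane part. *Atp5b* had 788 to 849.5 CPM with DMSO and 740.0 to 806 CPM with CHIR99021, which overlapped. *Atp5l* had 11.9 ± 1.24 and 14.5 ± 1.51 CPM (adjusted p = 0.0570, and 0.0264 with the block). Both were chosen after their values were seen. The 1 tested mitochondrial member of complex V, *mt-Atp6*, had a log2 fold change of 0.58.

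The largest fall among the members was in an assembly factor. *Atp5sl* (chr7:25619414-25625551, plus strand), named after a subunit of ATP synthase but known as a factor for building the distal membrane arm of complex I, had 39.0, 36.8, 35.5 and 33.3 CPM with DMSO and 19.2, 19.9, 22.3 and 18.6 CPM with CHIR99021. The groups were far apart, with a log2 fold change of -0.86 (SE 0.08, adjusted p = 1.70e-06), and the call was kept in all 23 alternative fits. The other 9 assembly factors that the symbols took in, 8 of them *Ndufaf* genes, did not pass the test, with log2 fold changes from -0.23 to 0.20.

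The nuclear counts depended on the scaling. With total counts alone 1 nuclear member rose and 26 fell, beside 2519 higher and 6119 lower over all tested genes (3958 and 4180 with TMM). With limma on log2(FPKM + 1), 0 rose and 25 fell, beside 2520 higher and 6032 lower over all tested genes. The falls of *Ndufv1*, *Ndufv3*, *Cox6a1* and *Atp5sl* passed the test in all 23 alternative fits, whereas each of the 6 nuclear rises was lost in at least 2. Without DMSO replicate 3, 10 nuclear members rose, beside 3711 of 16986 tested genes. Without DMSO replicate 1, 8 fell, beside 3953 of 16990. Without DMSO replicates 2 and 4 together 1 rose and 5 fell, beside 3119 higher and 3492 lower of 17292. The mitochondrial count was 12 with the pairs as a block, 8 to 12 with a single library left out and 8 without DMSO replicates 2 and 4. It was lowest, at 6, with limma on quantile-normalized log2(count + 1). The paper's methods name steps of this kind, a log2 transform, normalization between arrays and limma.

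Promoter windows of RefSeq (GRCm38.p6), from 250 bases before to 50 after a transcript start, were found for 75 of the 91 nuclear members, 81 windows in all, and were compared with the 32851 windows of all genes. Motifs were searched on both strands as plain letters, and matches to different motifs may overlap. The letters GCGCA and GCGC with any 1 base between them, bound by NRF1, a regulator of nuclear respiratory genes, occurred in 24.7% of the member windows and in 4.60% of all windows. For CCGGAAG, read by ETS factors such as GABP, the shares were 22.2 and 8.86%, and for AAGATGGCG, read by YY1, they were 12.3 and 1.40%. The E-box CACGTG was in 11.1 and 7.15%, and CTTTGA, the core read by TCF/LEF partners of β-catenin, in 9.88 and 16.0%. Among the 10 called nuclear members with a window, 2 held the NRF1 letters, 3 the ETS letters and 1 the YY1 letters. The E-box was in 2, *Atp5sl* and *Ndufv1*, which both fell. The TCF/LEF letters were in 2, *Cox6b2*, which rose, and *Ndufv1*. The 150 bases before the start are printed for 3 members with opposite or differing calls, *Cox6a1* (chr5:115348959-115349108, minus strand), which fell, and *Uqcrh* (chr4:116075071-116075220, minus strand) and *Cox6b2* (chr7:4753095-4753244, minus strand), which rose. Capitals mark the NRF1 and ETS letters in *Cox6a1*, the ETS letters in *Uqcrh* and the TCF/LEF letters in *Cox6b2*, the ETS and TCF/LEF matches being on the opposite strand.
Cox6a1: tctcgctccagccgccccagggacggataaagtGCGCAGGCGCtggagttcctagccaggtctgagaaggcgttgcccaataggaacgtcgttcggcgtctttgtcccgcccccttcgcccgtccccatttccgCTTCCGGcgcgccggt
Uqcrh: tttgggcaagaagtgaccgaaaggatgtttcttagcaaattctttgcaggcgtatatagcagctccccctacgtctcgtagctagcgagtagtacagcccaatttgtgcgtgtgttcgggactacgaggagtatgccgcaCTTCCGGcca
Cox6b2: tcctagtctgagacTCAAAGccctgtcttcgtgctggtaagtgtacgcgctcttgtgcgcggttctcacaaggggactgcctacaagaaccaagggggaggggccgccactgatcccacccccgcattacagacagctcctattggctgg

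A match describes these letters in this window and says nothing about whether the factor binds in the kidney.

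Genes that regulate or serve the respiratory chain were read from 9 lists, in which 26 of 230 tested genes rose and 34 fell, 11.3 and 14.8% beside 23.7 and 25.0% of all tested genes. The regulators of mitochondrial biogenesis fell most, with 7 of 12 lower, 1 higher and a median log2 fold change of -0.30. *Ppargc1a*, the coactivator PGC-1α that drives respiratory gene programs, had 27.6, 25.0, 20.7 and 21.4 CPM with DMSO and 9.24, 7.90, 7.03 and 6.97 CPM with CHIR99021 (log2 fold change -1.60, SE 0.13, adjusted p = 4.83e-07). *Esrrg*, an orphan nuclear receptor that works with it, had 41.6, 39.1, 28.6 and 36.8 CPM with DMSO and 8.92, 7.63, 7.97 and 7.17 CPM with CHIR99021 (log2 fold change -2.20, SE 0.12, adjusted p = 2.30e-08). Neither pair of groups overlapped. In the nephron *Esrrg* and *Ppargc1a* are typical of epithelial cells, and the nephron epithelium markers summed to 585 to 842 CPM with DMSO and 426 to 489 CPM with CHIR99021 (5 of 6 fell), a change whose part in these falls was not tested.

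Among genes for transcription and replication of mitochondrial DNA, 2 of 18 rose and 6 fell. *Polg*, the catalytic subunit of the mitochondrial DNA polymerase, rose from 65.1 ± 4.34 to 82.4 ± 9.37 CPM (log2 fold change 0.34, adjusted p = 0.00329). *Mgme1*, an exonuclease of mitochondrial DNA, fell from 19.1 ± 1.46 to 14.2 ± 0.769 CPM (log2 fold change -0.42, adjusted p = 0.00152). Genes that process and decay mitochondrial RNA gave 3 higher and 2 lower of 19, with a rise of *Fastkd2* (log2 fold change 0.38, adjusted p = 0.000833) and a fall of *Fastkd1* (-0.30, adjusted p = 0.00663), both members of a family of mitochondrial RNA-binding proteins. Of the 12 mitochondrial translation factors, 0 passed edgeR's test, 1 had an unadjusted p under 0.05, DESeq2 and limma-voom called 0, and limma on quantile-normalized log2(count + 1) called 2, *Mtfmt* and *Mtrf1*. Of 77 mitochondrial ribosomal proteins, 8 rose and 1 fell, with *Mrps12* at 0.44 (adjusted p = 0.00225) and *Mrpl45* at 0.36 (adjusted p = 0.000613).

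Assembly factors outside the symbol rule gave 3 higher and 6 lower of 39. *Sdhaf2*, which loads the flavin into complex II, rose from 33.6 ± 1.95 to 44.0 ± 4.34 CPM (log2 fold change 0.39, adjusted p = 0.00104), and *Cox10*, which makes heme for complex IV, fell from 15.1 ± 1.06 to 11.1 ± 0.844 CPM (log2 fold change -0.45, adjusted p = 0.00210). Among electron carriers and genes of coenzyme Q, 1 of 18 rose and 5 fell. *Coq8a*, an atypical kinase of coenzyme Q synthesis, had 8.06, 7.99, 7.62 and 6.61 CPM with DMSO and 1.37, 0.803, 1.00 and 0.789 CPM with CHIR99021 (log2 fold change -2.92, SE 0.20, adjusted p = 1.58e-07). *Etfdh*, which feeds electrons of fatty acid oxidation into coenzyme Q, rose from 50.9 ± 2.61 to 70.8 ± 6.49 CPM (log2 fold change 0.47, adjusted p = 0.000101).

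The citric acid cycle had 3 higher and 5 lower of 17 genes. *Suclg2*, a subunit of succinyl-CoA ligase, fell from 120.4 ± 3.20 to 88.5 ± 3.15 CPM (log2 fold change -0.44, adjusted p = 4.97e-06), and *Pdhb*, a subunit of pyruvate dehydrogenase, from 113 ± 6.97 to 92.0 ± 0.708 CPM (-0.30, adjusted p = 0.000296). For genes often read as a measure of mitochondrial mass (outer membrane, import and chaperones), 5 of 18 rose and 2 fell. *Tomm20*, an import receptor, rose from 141.5 ± 8.44 to 179.5 ± 6.85 CPM (log2 fold change 0.34, adjusted p = 0.000124), while *Slc25a5*, an ADP/ATP carrier, fell from 194 ± 4.38 to 128 ± 13.9 CPM (-0.60, adjusted p = 8.81e-06). Within none of these lists did all tested genes move in one direction. The 12 mitochondrial messengers all rose, but they are cut from shared long transcripts and do not count as 12 independent genes.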

How the data were processed

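RNA-seq of 4 DMSO-treated and 4 CHIR99021-treated kidney samples was analysed from the deposited table. The labels name Trizol and NEBNext Ultra, the paper EASYspin Plus and Hieff kits. The authors aligned reads to GRCm38 (HISAT2 2.0.5 per the submitters' processing notes) and counted them per gene with featureCounts, and these deposited counts are whole numbers without scaling. The authors' FPKM values are fragments scaled by gene length and sequencing depth, as deposited. The authors' comparison columns (mean signal, fold ratio, log2 value, p-value) hold their own results and were not used. Strand and multi-mapping settings of the counting are not given in the sources used here.

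Genes kept by filterByExpr (minimum count 10, minimum total 15; 16723 of 30890) were TMM-scaled and compared with edgeR 4.0.16 (glmQLFit robust, glmQLFTest, group as the only term) in R 4.3.3, with Benjamini-Hochberg adjustment across the tested genes. CPM use the TMM-scaled totals and SDs are over n = 4. Lists got no test. Alternatives were limma 3.58.1, DESeq2 1.42.0, other scalings and filters, FPKM, and libraries left out. Pairing was checked by the correlation of deviations from the group means: samples of equal number gave 0.313, 0.357, 0.129 and 0.244, other pairs -0.205 to 0.0805, and the paper states that both kidneys came from 1 embryo. p-values measure the spread between these samples.

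Stretches of 50 bases of each member were looked up in the GENCODE M21 transcripts. The procedure was tested on counts simulated for 16723 genes, where it called 64 of 100 genes changed by 0.5 on the log2 scale and 99 of 100 changed by 1, with 8 false calls. Only these genes, all well counted, were changed there, with equal numbers in each direction. In the data 48.7% of tested genes were called, so these rates do not carry over to this comparison or to members with few counts. The members, lists and tests were chosen with earlier results of these data known. Named were all mitochondrial members, the 2 highest and 2 lowest called members of each nuclear complex, all isoforms, and the 2 called genes of smallest p in each list. The values of 1 gene that this rule names are not reported here.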

Additional observations from a re-analysis of the deposited data

Results flagged for a closer look

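A library far from the other 3 of its group was found in 5 of 106 groups of values examined, where chance flags about 1 in 20. In CHIR99021 replicate 4, *mt-Co1* stood at 18821 CPM, against 21194 to 21394 CPM in the other CHIR99021 libraries, *mt-Co2* at 88.7 CPM against 99.97 to 101.9 CPM, and the 13 mitochondrial members at 3.42% of counts against 3.96 to 4.06%. All 3 values lay above every DMSO library. *Pdhb* stood at 123.7 CPM in DMSO replicate 3, against 109 to 110.9 CPM in the other DMSO libraries. *Sdhaf2* stood at 50.5 CPM in CHIR99021 replicate 1, against 41.5 to 42.3 CPM.

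Counts assigned to the pseudogene copies on chromosome 1, which are not members, were higher with CHIR99021. The log2 fold changes were 0.66 for *Gm10925*, 0.65 for *Gm28437*, 0.60 for *Gm28661*, 0.64 for *Gm28439*, 0.39 for *Gm29216*, 0.74 for *Gm28438* and 0.53 for *Gm10222*, with adjusted p-values of 0.000245 to 0.00477 from edgeR's quasi-likelihood test. Whether these counts came from the nuclear copies or from mitochondrial reads was not tested.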

How the results depend on the processing

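Over 23 alternatives the 12 mitochondrial rises were counted as 6 with limma on log2(count + 1) after quantile normalization, where their median log2 fold change was 0.32 and those of *mt-Nd1*, *mt-Nd2* and *mt-Nd5* turned to -0.0047, -0.052 and -0.035. This step gives the gene of a given rank the same value in each library, and *mt-Co1* ranked 1 in all 8. Other alternatives gave 8 to 12. Members called higher, 18 in all, became 10 with total counts, 10 with totals without mitochondrial genes, 11 with log2(FPKM + 1), 11 with log2(FPKM + 0.1) and 9 without DMSO replicates 2 and 4, and nuclear rises (6) became 1, 1, 0, 0 and 1, or 3 with upper-quartile scaling. Falls, all nuclear (5 in both counts), became 26, 23, 25 and 24 under the first 4 of these settings, 12 with upper-quartile scaling and 8 with log2(count + 1). The nuclear median became -0.13, -0.11, -0.11 and -0.12 under those 4 settings, and the median over all tested genes -0.14, -0.12, -0.10 and -0.13. Pathway genes called higher (26) became 8, 10, 8 and 8, 15 with upper-quartile scaling and 12 without DMSO replicates 2 and 4, and those called lower (34) became 70, 68, 71 and 69, and 20 without those replicates. Over all tested genes, 2519, 2646, 2520 and 2437 were called higher under those 4 settings, beside 3958 with TMM. Those called lower were 6119, 5838, 6032 and 5899, beside 4180 with TMM. Upper-quartile scaling gave 3366 higher and 4747 lower, and log2(count + 1) gave 4250 and 3873. Without DMSO replicates 2 and 4, 3119 were higher and 3492 lower over all tested genes. The cause of these changes was not tested. With a single library left out, 13 to 19 members rose and 4 to 8 fell, 4 to 10 of the rises and 4 to 8 of the falls being nuclear, and 16 to 26 pathway genes rose. Over all tested genes, 3561 to 3812 rose and 3877 to 4064 fell in these fits. With the replicate number as a block, 12 mitochondrial and 8 nuclear members rose and 6 nuclear members fell, and no call of a named gene in the rule changed. That fit called 4096 higher and 4376 lower over all tested genes. For the 49 named and tested genes, 1024 fits kept direction and call, 88 lost the call, 12 gained it and 3 reversed. Adding the copies to their members, and the ratio with the copies (log2 difference 0.61) or from the 5 least shared members (0.61), were chosen after seeing the data. Few assigned counts limit *mt-Atp8*, *mt-Nd3* and *mt-Nd4l*.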
